A study of Mus musculus with 6 samples.

Results

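The 26 genes described here encode proteins of the peroxisome, the single-membrane organelle that shortens very-long-chain and branched fatty acids and breaks down the hydrogen peroxide this produces. They were taken by name from a deposited table of 23808 genes and fall into 13 enzymes and transporters of peroxisomal lipid oxidation and 13 peroxins, the PEX proteins that build the organelle and import its enzymes. All 26 were found in the table. The rule uses no measured value, but the members were chosen with earlier results of these data known. The table came from mRNA-seq of hearts of wild-type (WT) female mice. The NC group received normal chow and the HFD group a high-fat diet, each from week 4 to week 12 of age, with 3 libraries per diet and 6 in all. The labels name no further treatment, allele or strain, do not give the composition of either diet, and do not state whether each library is 1 animal, so p-values here reflect only how these libraries vary, and that variation may be technical.

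Peroxisomal beta-oxidation begins when ABC transporters of the D family bring acyl-CoA across the membrane. An acyl-CoA oxidase then passes electrons straight to oxygen, a bifunctional enzyme hydrates and dehydrogenates the product, and a thiolase cleaves it. The shortened chain leaves as an acylcarnitine and can be finished in the mitochondria, which supply most of the energy of the heart. Matrix enzymes are made in the cytosol, bound by import receptors that read their targeting signals, passed through a docking complex, and released inside. The receptors are then ubiquitinated by RING-finger peroxins and pulled back out by an AAA ATPase. Several genes of the oxidation pathway are classical targets of the nuclear receptor PPAR-alpha, which binds fatty acids and, as a dimer with RXR, a direct repeat of its half-site with 1 base between (DR1).

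Promoter sequences are shown for 4 members on which the results below turn: Abcd3 and Ehhadh, the members in which the 2 diets did not overlap, Cat, which had the closest DR1 match, and Pex10, which had the most negative difference. Each is the 250 bases before a RefSeq start site, 5′ to 3′ on the strand of the gene, in build GRCm38.p6, of which mm10, named in the submitters' processing notes, is the same assembly. They lie at chr3:121815303-121815552 (minus strand, Abcd3, the more upstream of 2 start sites), chr16:21787835-21788084 (minus strand, Ehhadh), chr2:103485154-103485403 (minus strand, Cat) and chr4:155066780-155067029 (plus strand, Pex10). Capitals mark matches on either strand to the half-site AGGTCA, to the DR1 motif AGGTCANAGGTCA with up to 2 mismatches, and to the GC box GGGCGG.
Abcd3: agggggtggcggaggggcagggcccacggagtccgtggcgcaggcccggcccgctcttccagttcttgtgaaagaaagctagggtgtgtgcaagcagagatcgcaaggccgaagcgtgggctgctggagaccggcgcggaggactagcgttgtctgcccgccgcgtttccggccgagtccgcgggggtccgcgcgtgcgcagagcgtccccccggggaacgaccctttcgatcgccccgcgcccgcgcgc
Ehhadh: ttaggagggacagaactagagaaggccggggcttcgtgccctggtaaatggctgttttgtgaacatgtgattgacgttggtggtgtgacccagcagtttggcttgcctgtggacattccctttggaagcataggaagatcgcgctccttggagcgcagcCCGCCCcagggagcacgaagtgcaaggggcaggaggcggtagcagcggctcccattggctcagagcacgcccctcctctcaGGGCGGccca
Cat: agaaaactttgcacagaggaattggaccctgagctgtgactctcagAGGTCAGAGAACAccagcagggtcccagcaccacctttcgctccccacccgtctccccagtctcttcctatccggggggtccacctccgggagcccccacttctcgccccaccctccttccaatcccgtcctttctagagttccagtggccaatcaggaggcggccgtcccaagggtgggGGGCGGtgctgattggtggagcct
Pex10: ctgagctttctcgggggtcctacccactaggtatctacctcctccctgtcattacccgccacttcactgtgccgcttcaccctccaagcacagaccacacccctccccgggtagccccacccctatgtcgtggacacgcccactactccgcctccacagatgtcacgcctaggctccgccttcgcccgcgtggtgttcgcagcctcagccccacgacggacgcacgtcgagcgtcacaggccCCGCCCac

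Promoter windows made of the 250 bases above and the first 50 of the transcript were listed for 21 of the 26 members, and were searched for the same motifs. Cat was the only member with a DR1 match, AGGTCAGAGAACA, whose first base lies at −204 from the start site and whose first 6 bases are also a half-site match. Of all 32817 windows, 3.86% held such a match. The half-site was present in 3 of 11 windows of enzymes and transporters (Cat, Phyh and Scp2) and in 1 of 14 windows of peroxins (Pex11g), beside 16.3% of all windows. The GC box was present in 7 of 11 and in 10 of 14 windows, beside 35.6% of all windows. Some genes have several windows, and those of Pex5 overlap in part. By gene the counts were 7 of 10 and 9 of 11, beside 10304 of all 26994 genes with a window. Abcd3 had none of the 3 motifs in this window. A match describes letters only, and binding was not measured.

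The question was whether transcripts of the peroxisome differ in the heart between the diets, and whether the genes that build the organelle differ in this from the genes that oxidise lipid in it. No member passed the test in either class. Differences are HFD minus NC on the log2(FPKM + 1) scale, where FPKM is the fragment count corrected for gene length and library size, and were tested with limma and Benjamini-Hochberg adjustment over the 11456 genes whose mean reached 1 FPKM (threshold 0.05). Of the 26 members 24 reached that mean, 12 in each class. Their adjusted p was 0.9998 in all 24, and 0 of 24 had an unadjusted p under 0.05. Over all tested genes 0.00% passed at the adjusted threshold and 3.62% at the unadjusted one.

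Depth cannot be read from FPKM values and is unknown. Summed FPKM was lower in HFD 1 (576334) than in the other 5 libraries (687877 to 739406). Heart muscle genes were abundant in every library, with the ventricular light chain gene Myl2 between 8410 and 15202 FPKM. Atrial genes varied widely, as Nppa was between 227 and 9404 FPKM. Because these are bulk samples, fewer cells of a type and less RNA per cell cannot be told apart.

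**Figure D1:**
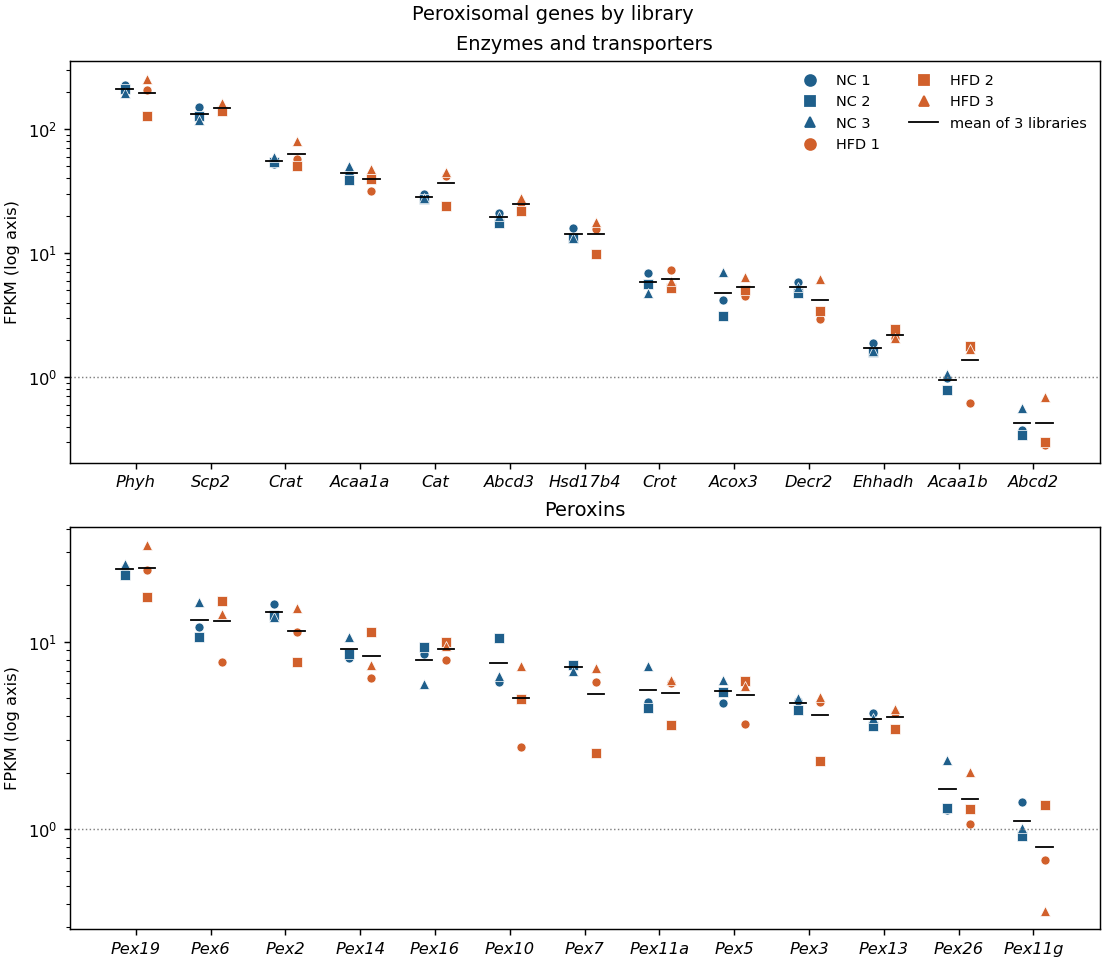
FPKM of the 26 genes in each library on a log axis, enzymes and transporters above and peroxins below, each panel in order of mean level. Blue symbols are the 3 NC and orange symbols the 3 HFD libraries, bars are diet means, and the dotted line is at 1 FPKM; Abcd3 and Ehhadh are the genes whose HFD symbols all lie above their NC symbols.

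Transporters opened the list of enzymes. Abcd3 (PMP70), the abundant transporter for branched-chain and dicarboxylic acyl-CoA, was at 21.1, 17.6 and 19.9 FPKM on normal chow against 25.5, 22 and 27.9 on high fat (values follow replicates 1, 2 and 3 here and below). Every HFD library was above every NC library, though HFD 2 cleared NC 1 by little. Means were 19.5 ± 1.75 and 25.1 ± 2.97 FPKM (SD, n = 3 each), a log2 difference of 0.34 (SE 0.20, 95% interval −0.10 to 0.79; limma adjusted p = 0.9998). It was 0.27 to 0.43 when 1 library was left out. Abcd2, a close relative of the adrenoleukodystrophy transporter, was low, between 0.286 FPKM in HFD 1 and 0.692 FPKM in HFD 3, with overlapping diets, and was not tested.

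The core enzymes of beta-oxidation split between higher and lower means. Ehhadh, the bifunctional enzyme of the inducible branch, was at 1.90, 1.59 and 1.64 FPKM on normal chow against 2.07, 2.43 and 2.08 on high fat. This too was a low gene without overlap, its log2 difference being 0.24 (SE 0.21, interval −0.22 to 0.69; limma adjusted p = 0.9998). Over all tested genes 3.25% had every HFD library above every NC library and 4.88% the reverse; among the 24 members these were 2 (Abcd3 and Ehhadh) and 0. Hsd17b4, the D-bifunctional protein that handles very-long-chain and branched substrates, was at 16.1, 13.3 and 13.2 FPKM on normal chow against 15.6, 9.76 and 17.7 on high fat. HFD 2 was the lowest and HFD 3 the highest of its 6 libraries. Its mean difference was near 0 (−0.02, SE 0.25), with an interval from −0.55 to 0.52. Acox3, an oxidase of branched-chain substrates, ranged from 3.12 FPKM in NC 2 to 7.10 FPKM in NC 3, so that the NC libraries enclosed all HFD libraries (4.49 to 6.41 FPKM).

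The thiolases did not share a direction. Acaa1a was at 43.8, 38.6 and 50.6 FPKM on normal chow against 31.6, 39.8 and 47.6 on high fat (log2 difference −0.17, SE 0.22), and the difference was −0.017 without HFD 1 and −0.305 without HFD 3. Its neighbour Acaa1b was near the filter at 0.976, 0.795 and 1.06 FPKM on normal chow against 0.619, 1.79 and 1.68 on high fat (0.24, SE 0.25), with 0.103 without HFD 2 and 0.497 without HFD 1. HFD 1 was the lowest library of both. The 2 genes lie on chromosome 9 (Acaa1a from 119339676 to 119350299, Acaa1b from 119148023 to 119157093 in mm10), and 35.1% of the 50-base stretches of the Acaa1a transcript and 46.2% of those of Acaa1b also occur in transcripts of other genes, chiefly of each other. Both levels are uncertain, since the sources used here do not give the assignment of shared reads. Scp2, which encodes a further thiolase and the sterol carrier protein, was at 151, 128 and 118 FPKM on normal chow against 146, 140 and 162 on high fat. The diets overlapped (0.18, SE 0.195, and 0.277 without NC 1 but 0.1 without NC 3), and 41.4% of its stretches recur in other genes, chiefly the pseudogene Scp2-ps2. Decr2, the reductase needed for unsaturated chains, was the most negative of the class, at 5.83, 4.79 and 5.32 FPKM on normal chow against 2.93, 3.4 and 6.24 on high fat (−0.33, SE 0.26). HFD 1 and HFD 2 lay under the NC libraries and HFD 3 above them, and the difference was −0.159 without HFD 1 and −0.6 without HFD 3.

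Genes for the exit of shortened chains varied within the diets. Crot, the carnitine octanoyltransferase, was at 4.78 to 6.95 FPKM on normal chow against 5.23 to 7.38 on high fat, a log2 difference of 0.08 (SE 0.23). Crat, the carnitine acetyltransferase shared by peroxisomes and mitochondria, was at 52.0, 54.7 and 59.4 FPKM on normal chow against 57.5, 50.8 and 80.3 on high fat. Only HFD 3 was above all NC libraries, and the difference of 0.16 was −0.03 without it.

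Phyh and Cat, both abundant, showed how far 1 HFD library could carry a mean. Phyh, the phytanoyl-CoA hydroxylase of alpha-oxidation, was the most abundant member, at 228, 210 and 195 FPKM on normal chow against 208, 127 and 252 on high fat. HFD 2 was far below the other 5 libraries. The log2 difference of −0.16 (SE 0.25) was 0.12 without HFD 2 and −0.372 without HFD 3. Cat, the catalase that breaks down hydrogen peroxide, was tight on NC at 30.0, 27.2 and 27.7 FPKM and split on HFD at 42.2, 24.2 and 44.9 FPKM. HFD 1 and HFD 3 lay above all NC libraries and HFD 2 below them, so the diets overlapped. Its difference of 0.33 (SE 0.25, interval −0.21 to 0.87; limma adjusted p = 0.9998) was 0.60 without HFD 2 and 0.17 without HFD 3.

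Among the peroxins, the import receptors differed from each other. Pex7, the receptor for the amino-terminal targeting signal of phytanoyl-CoA hydroxylase and the Acaa1 thiolases, was at 7.52, 7.53 and 6.98 FPKM on normal chow against 6.07, 2.56 and 7.22 on high fat. Its NC libraries were almost level (coefficient of variation 4.32%), and HFD 2 was far below everything else. The log2 difference of −0.50 (SE 0.30, interval −1.14 to 0.15; limma adjusted p = 0.9998) was −0.13 without HFD 2 and −0.734 without HFD 3. Pex5, the receptor for the more common carboxy-terminal signal, was at 4.68, 5.37 and 6.24 FPKM on normal chow against 3.65, 6.13 and 5.78 on high fat. Only HFD 1 was outside the NC range (−0.07, SE 0.24).

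In the docking complex both genes overlapped between the diets. Pex13 was at 3.53 to 4.17 FPKM on normal chow against 3.43 to 4.36 on high fat, a difference of 0.03 (SE 0.21). Pex14 was at 8.17, 8.55 and 10.6 FPKM on normal chow against 6.42, 11.3 and 7.53 on high fat, and its HFD libraries enclosed the NC libraries (−0.13, SE 0.24, interval −0.66 to 0.40), with 0.028 without HFD 1 and −0.336 without HFD 2. Exons of Pex14 overlap the gene Gm17029 on the other strand, with which 25.1% of its 50-base stretches are shared, and the sources used here do not say whether strand was used.

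The RING ligase subunits had some of the most negative means. Pex10 was at 6.06, 10.5 and 6.53 FPKM on normal chow against 2.75, 4.95 and 7.39 on high fat. HFD 1 and HFD 2 lay under the NC libraries, but HFD 3 lay above NC 1 and NC 3. The log2 difference was −0.57 (SE 0.31, interval −1.24 to 0.10), with the smallest unadjusted p of the members (0.0894; limma adjusted p = 0.9998), and it was −0.265 without HFD 1, −0.35 without NC 2 and −0.846 without HFD 3. Pex2 was at 15.8, 13.9 and 13.5 FPKM on normal chow against 11.3, 7.78 and 15 on high fat. HFD 1 and HFD 2 again lay under the NC libraries and HFD 3 among them (−0.355, SE 0.25), and the difference was −0.13 without HFD 2 and −0.562 without HFD 3.

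Genes of receptor export and membrane biogenesis gave small differences with wide intervals. Pex6, an AAA ATPase, was at 12.0, 10.6 and 16.2 FPKM on normal chow against 7.81, 16.4 and 14.0 on high fat (−0.06, SE 0.28, with 0.235 without HFD 1 and −0.258 without HFD 2). Pex26, its membrane anchor, was at 1.27 to 2.34 FPKM on normal chow against 1.06 to 2.02 on high fat. Pex19, the chaperone of peroxisomal membrane proteins and the most abundant peroxin, was at 22.5 to 25.8 FPKM on normal chow against 23.9, 17.2 and 32.5 on high fat. The NC libraries thus sat inside the spread of the HFD libraries. Pex3, its docking site at the membrane, was at 4.34 to 4.98 FPKM on normal chow against 4.74, 2.32 and 5.05 on high fat, and only HFD 2 left the NC range by much. Its difference of −0.23 (SE 0.26) was 0.05 without HFD 2 and −0.387 without HFD 3. Pex16, which helps recruit Pex3, had the most positive peroxin difference, 0.19 (SE 0.23), with NC 3 lowest at 5.96 FPKM and the other 5 libraries between 7.96 and 9.98 FPKM. It was 0.02 without NC 3.

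Pex11a and Pex11g, of the family that elongates the membrane before division, also overlapped. Pex11a, an inducible form, was at 4.74, 4.40 and 7.38 FPKM on normal chow against 6.04, 3.58 and 6.27 on high fat (−0.05, SE 0.265). Pex11g was low, at 1.39, 0.923 and 1.01 FPKM on normal chow against 0.687, 1.35 and 0.368 on high fat, missed the filter with a mean of 0.956 FPKM and was not tested. Of its 50-base stretches 47.8% are shared with Gm44775, a gene on the other strand, so its reads may not be told apart from that gene's.

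**Figure D2:**
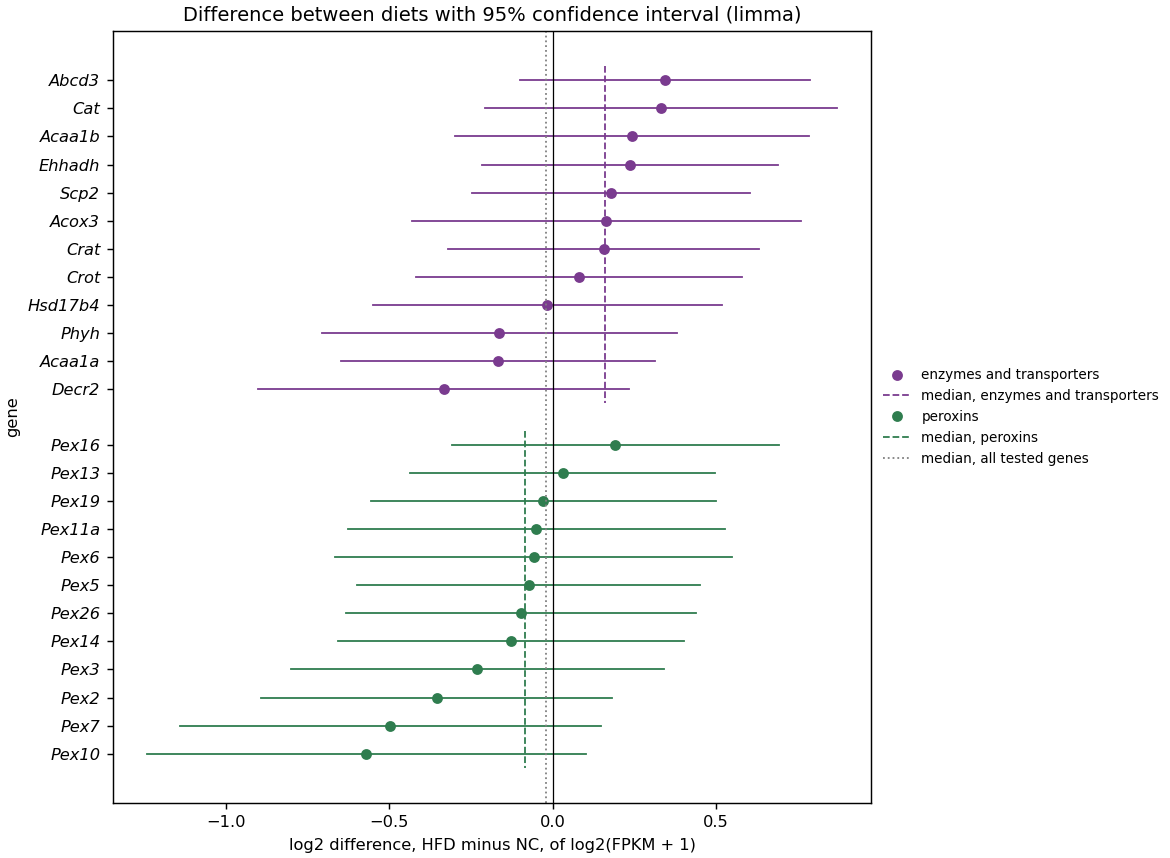
Log2 difference between the diets for the 24 tested genes (points) with limma 95% confidence intervals (lines), by class, with class medians (dashed) and the median of all tested genes (dotted). Every interval includes 0, from Abcd3 at 0.34 to Pex10 at −0.57.

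By class, 8 of 12 tested enzymes and transporters had a positive difference and 4 a negative one, with a median of 0.16. Of 12 tested peroxins 2 were positive and 10 negative, with a median of −0.09. Over all tested genes 46.9% were positive and the median was −0.02. The class medians thus lay on either side of that of all genes, but no single gene passed, the members share 6 libraries, and the classes were compared without a test. Both medians moved with single libraries. That of the enzymes and transporters was 0.0716 without HFD 3 and up to 0.2 without another library, and 0.242 with mitochondrially encoded genes left out. That of the peroxins was between −0.176 (without NC 2) and 0.0147 (without NC 3), and −0.0238 with mitochondrially encoded genes left out. In that setting each library was then scaled to the same summed FPKM, so the values of all remaining genes changed.

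The mean log2 level of the 12 enzymes and transporters was 4.21, 4.02 and 4.15 on normal chow against 4.15, 4.04 and 4.46 on high fat, which overlapped. That of the 12 peroxins was 3.0, 3.01 and 3.12 on NC and 2.76, 2.75 and 3.15 on HFD, which overlapped as well. The gap between the classes was 1.21, 1.01 and 1.03 on NC and 1.39, 1.28 and 1.31 on HFD. Here the diets did not overlap: the gap was wider in each HFD library than in each NC library, by 0.24 on average. The separation was narrow between NC 1 (1.21) and HFD 2 (1.28). It was not tested, and such gaps between other sets of genes were not computed, so how often they separate the diets is unknown. The gap between the class medians of the fitted differences was 0.245 with all libraries and 0.14 without NC 3.

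**Figure D3:**
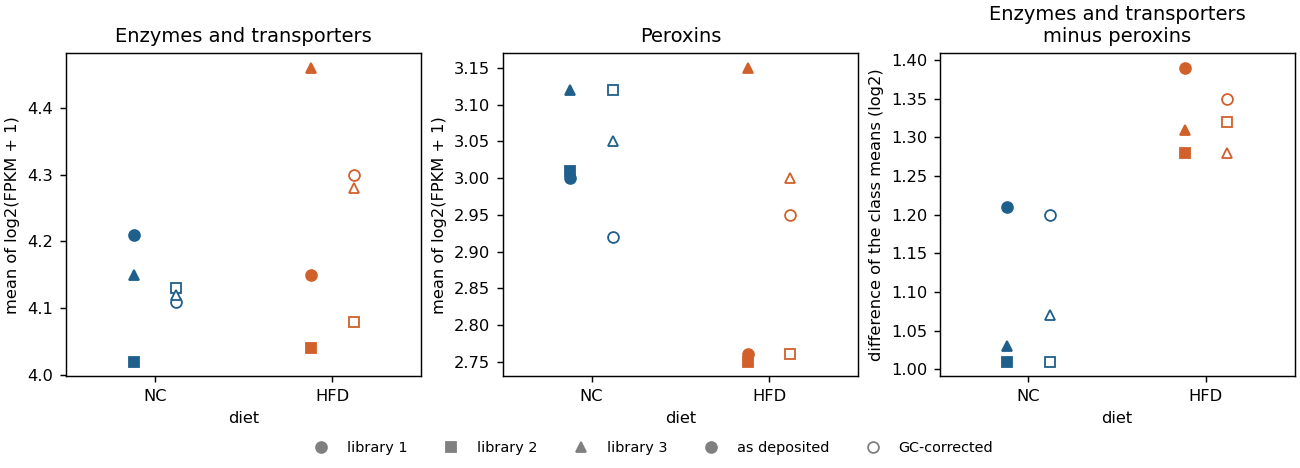
Mean log2(FPKM + 1) of the 12 tested enzymes and transporters, of the 12 tested peroxins, and their difference, per library. Filled symbols are values as deposited and open symbols values after the trend on GC content was subtracted; in the right panel the HFD libraries (1.28 to 1.39 as deposited) lie above the NC libraries (1.01 to 1.21).

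Deviations of the members in HFD 2 and HFD 1 differed with base composition. Of the 24 tested members 10 (41.7%) had their lowest value in HFD 2 and 8 (33.3%) in HFD 1, against 23.1% and 33.0% of all tested genes. In HFD 3, 10 (41.7%) had their highest value, against 34.5%. The shares in HFD 1 and HFD 3 were near those of all genes. The 14 members with a transcript GC content under 50% had a median deviation from their own 6-library mean of −0.42 (log2) in HFD 2 and 0.07 in HFD 1. The 10 members at 50% GC or more had 0.11 in HFD 2 and −0.38 in HFD 1, where all 10 were below their own mean. Pex7 (44.0% GC), Pex3 (42.8%), Pex2 (43.0%) and Phyh (45.8%) were the lowest in HFD 2, with deviations of −0.98, −0.667, −0.629 and −0.643. Pex10 (56.2% GC) and Pex6 (63.1%) were the lowest in HFD 1, with −0.895 and −0.615. The same slope ran through all genes. In the tenth of genes with the least GC (up to 42.0%) the median deviation was −0.17 in HFD 2 and 0.02 in HFD 1, and in the tenth with the most (from 58.3%) it was 0.16 and −0.38. Across 11441 genes, which are not independent replicates, the Spearman correlation of deviation with GC was −0.20, −0.03 and 0.42 on NC. On HFD it was −0.49, 0.32 and −0.225, so such slopes were not limited to 1 diet. Among the 24 members it was −0.54, −0.12 and 0.32 on NC against −0.66, 0.61 and −0.03 on HFD.

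**Figure D4:**
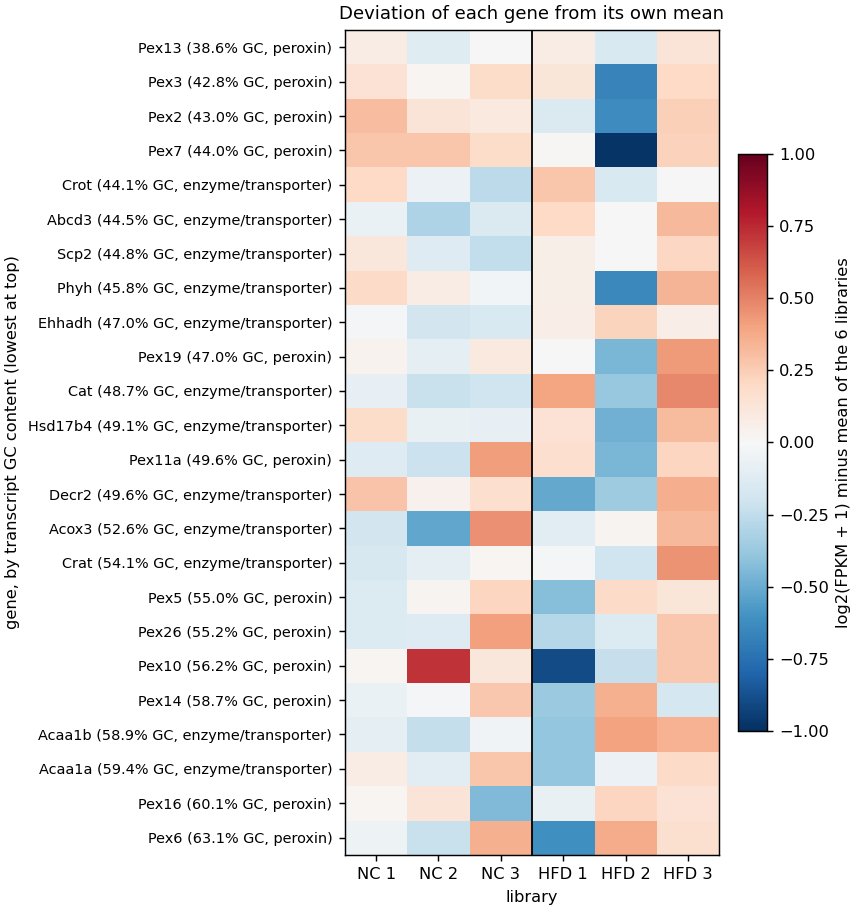
Deviation of each tested gene from its own 6-library mean on the log2(FPKM + 1) scale (blue lower, red higher), by library and ordered by transcript GC content with the lowest at the top. Genes under 50% GC are low in HFD 2 (median −0.42) and genes at 50% or more are low in HFD 1 (median −0.38).

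With the GC trend of each library subtracted, a step added after the data had been seen, still no member passed (limma, 0 of 24). The class medians were 0.17 for enzymes and transporters and −0.04 for peroxins. The gap between the class means was 1.2, 1.01 and 1.07 on NC and 1.35, 1.32 and 1.28 on HFD, so it was about as wide as before. Abcd3 stood at 0.31, Cat at 0.33, Pex7 at −0.53 and Pex10 at −0.50. Pex6 went from −0.06 to 0.09.

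Members were more even on NC than on HFD, as were all tested genes. The median coefficient of variation of the members was 12.2% over the NC and 29.5% over the HFD libraries. For all tested genes it was 19.1% and 24.9%. It was larger on HFD in 17 of 24 members (70.8%), beside 62.9% of all tested genes.

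Markers of other cell types were uneven between the libraries. The 6 atrial markers summed to 347 to 13782 FPKM on normal chow against 430 to 7041 on high fat, and the 5 erythroid markers to 2025 to 8294 against 1241 to 13371. The 6 adipocyte markers summed to 3.74 to 67.3 FPKM on normal chow against 1.04 to 51.8 on high fat. By library these sums were 67.3, 3.74 and 55.7 FPKM on normal chow against 1.04, 13.7 and 51.8 on high fat, so that both diets held high and low libraries. The 5 brown adipocyte markers summed to 649 to 715 FPKM on normal chow against 546 to 841 on high fat. Most of this sum was Cox8b, and both the sum and Cox8b were lowest in HFD 3. The mean log2 level of the same 5 markers was instead highest in HFD 3, so the sum does not describe the list as a whole. Ucp1, which defines brown fat, was listed at 0 in 4 libraries and was 0.0653 FPKM in HFD 1 and 4.11 FPKM in HFD 3. Cox8b was at 633 to 696 FPKM on normal chow, where Ucp1 was 0 in every library. The sum can therefore not be taken as a measure of brown fat. Liver, where peroxisomes abound, left little trace: the 6 hepatocyte markers summed to 0.366 to 4.48 FPKM on normal chow against 0.151 to 3.33 on high fat. All 6 macrophage markers had a lower mean log2 level on HFD (sums of 103 to 136 FPKM on normal chow against 68.4 to 99.0 on high fat), as did 5 of 6 fibroblast markers (319 to 582 and 248 to 504 FPKM), 5 of 6 smooth muscle and pericyte markers (225 to 298 and 169 to 227 FPKM) and 6 of 7 cardiomyocyte markers (24122 to 32126 and 21525 to 23568 FPKM). The cardiomyocyte sums did not overlap, but the mean log2 level of those 7 markers did. It was 10.76, 10.81 and 10.53 on normal chow against 10.38, 10.35 and 10.76 on high fat. All 6 endothelial markers had a higher mean log2 level on HFD (320 to 343 and 323 to 506 FPKM). By library the HFD sums were 323, 506 and 326 FPKM, so only HFD 2 was above the NC range. Much of the sum in HFD 2 was Egfl7, at 344 FPKM there against 137 in HFD 1 and 166 in HFD 3. The part of all these markers in the differences was not tested.

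Other genes of the peroxisome, with 5 regulators, made up 8 further lists of 62 genes. Of these 59 were in the table and 45 were tested. None passed (limma, 0 of 45), and 2 of 45 (Pparg and Ephx2) had an unadjusted p under 0.05, beside 3.62% of all tested genes. By direction 24 had a positive and 21 a negative difference, with a median of 0.03. Every HFD library was above every NC library in 4 of the 45 and below in 2, beside 3.25% and 4.88% of all tested genes. Without the regulators 41 were tested, of which 21 were positive and 20 negative (median 0.005). In these 41, 1 had an unadjusted limma p under 0.05, 3 had every HFD library above and 2 every one below.

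Ech1, an isomerase of peroxisomes and mitochondria, was at 723 to 870 FPKM on normal chow against 931 to 1022 on high fat without overlap (log2 difference 0.27, SE 0.19). Acsl1, an acyl-CoA synthetase, overlapped (0.23, SE 0.24). The list of beta-oxidation genes outside the 26 had 6 of 8 positive and a median of 0.07.

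Ephx2, the soluble epoxide hydrolase of peroxisomes and cytosol, was at 64.3, 61.7 and 48.3 FPKM on normal chow against 93.5, 74.3 and 93.9 on high fat. The diets were well apart, and the difference of 0.58 (SE 0.21) did not pass (limma, unadjusted p = 0.0164, adjusted p = 0.9998). Gstk1, a glutathione transferase, went the other way, at 77.0, 69.5 and 74.2 FPKM on normal chow against 56.8, 52.0 and 63.2 on high fat (−0.36, SE 0.19), again without overlap. Dhrs4, a reductase, had a difference of 0.30 (SE 0.225), and 4 of 10 redox and other matrix enzymes were positive (median −0.07).

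In the membrane and division list 5 of 11 were positive (median −0.12), and Pxmp2, a channel-forming membrane protein, was at 60.0 to 71.3 FPKM on normal chow against 51.3 to 58.9 on high fat, without overlap (−0.22, SE 0.19). Mpv17 and the fission factor gene Fis1 had −0.24 (SE 0.22) and −0.23 (SE 0.21). Hacl1, the lyase that follows Phyh in alpha-oxidation, was at 1.47 to 2.15 FPKM on normal chow against 1.92, 3.4 and 4.66 on high fat (0.56, SE 0.27), and Aldh3a2 had 0.09 (SE 0.22). The ether lipid genes Gnpat, Agps and Far1 had −0.07, 0.23 and −0.13, and the acyl-CoA hydrolase genes Acot8, Nudt7 and Nudt12 had −0.17, 0.14 and 0.20.

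Among 5 regulators, Ppara, the PPAR-alpha gene, was between 0.513 and 1.22 FPKM and missed the filter. Pparg, best known from fat cells, was at 7.27, 4.83 and 3.69 FPKM on normal chow against 10.2, 10.1 and 8.04 on high fat. Every HFD library exceeded every NC library (0.77, SE 0.25; limma adjusted p = 0.9998). Ppard and the coactivator gene Ppargc1a had 0.18 (SE 0.31) and 0.34 (SE 0.27).

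**Figure D5:**
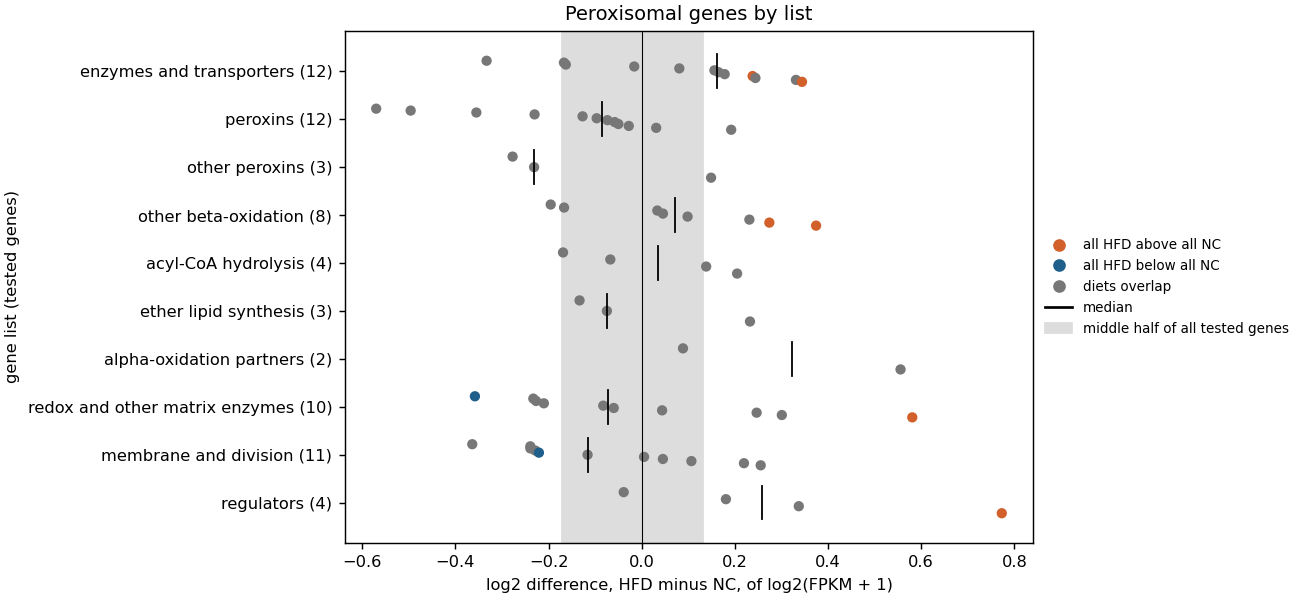
Log2 difference between the diets for each tested gene of the 2 classes and the 8 further lists, with list medians as black lines and the middle 50% of all tested genes (−0.17 to 0.13) in grey. Orange points have all HFD libraries above all NC libraries and blue points the reverse; Pparg at 0.77 and Ephx2 at 0.58 lie farthest to the right.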

How the data were processed

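The deposited table held FPKM values, computed by the authors per gene and library. Per the submitters' processing notes, which give no roles, the tools were DESeq2 1.18.1, HISAT2 2.2.1, FastQC 0.11.9, HTSeq 0.13.5, Trimmomatic 0.38 and R 3.4.1, with build mm10. The program that made the FPKM values was not given in the sources used here. Symbols were matched by gene identifier for 23718 of 23808 genes. Of the genes of the further lists, Peds1, Hao2 and Dao were not matched.

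Values were taken as log2(FPKM + 1), a scale that shrinks the differences of low genes. Those whose mean reached 1 FPKM were tested two-sided by limma (version 3.58.1, under R 4.3.3) with a mean-variance trend in eBayes. The procedure was first tested on simulated data with errors independent between genes and libraries. Those data held no GC trend, so the simulation does not show how the test behaves with one. Read counts and depth were not recovered. Gene positions, transcript GC (longest coding transcript, found for 99.6% of genes) and shared 50-base stretches come from GENCODE M21, and promoters from RefSeq. The GC trend was a lowess fit (span 0.3) per library.

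The members and lists were chosen with earlier results of these data known. All 26 members are named, and of each further list the up to 3 tested genes with the smallest p, besides Ppara; some genes of these lists are not reported here. Figures were drawn with matplotlib 3.10.9.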

Additional observations from a re-analysis of the deposited data

How the results depend on the processing

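Of the 24 tested members 0 passed under any of the 20 other settings (smallest limma adjusted p = 0.675). In all settings in which they were tested 11 kept their direction, among them Abcd3, Ehhadh, Cat, Pex2, Pex7 and Pex10. Several settings could not turn a sign, because they left the differences as they were: the other eBayes options, the other filters and the replicate block. GC correction with the block likewise repeated the differences of GC correction alone. The other 13 members turned sign at least once, from differences of −0.23 (Pex3) to 0.165 (Acox3) under the settings used above. Members that kept their direction were not all farther from 0, as Acaa1a had −0.167. Pex19 gave 0.04 after quantile normalization and 0.0075 after upper quartile scaling. It gave 0.059 with mitochondrially encoded genes left out, a setting that also rescaled each library, and 0.021 with the atrial marker covariate. Hsd17b4 gave 0.01, 0.019, 0.068 and 0.018 in the same settings. Pex6 gave 0.024 and Pex11a 0.027 with mitochondrially encoded genes left out. Pex11a gave 0.023 with library weights and 0.0086 with the atrial marker covariate. With GC correction, with or without the replicate block, Pex13 gave −0.027 and Pex6 0.09.

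With 1 library left out, values ranged from −0.055 to 0.433 for Acox3, −0.036 to 0.2 for Crot, −0.032 to 0.293 for Crat, −0.372 to 0.118 for Phyh, −0.179 to 0.221 for Hsd17b4, −0.336 to 0.028 for Pex14, −0.189 to 0.12 for Pex5, −0.023 to 0.113 for Pex13, −0.246 to 0.195 for Pex19, −0.258 to 0.235 for Pex6, −0.256 to 0.086 for Pex26, −0.387 to 0.046 for Pex3 and −0.17 to 0.164 for Pex11a. The gap between the class medians ranged from 0.138 (without NC 3) to 0.333 (without NC 1), and the number of genes called over all genes from 0 to 1 (without NC 2). The cause was not tested.

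Deviations of same-numbered libraries had correlations of 0.193, 0.0864 and 0.275 over genes for numbers 1, 2 and 3. NC 1 and NC 3 were closest to the HFD library of their own number, but NC 2 was closer to HFD 1 (0.251), and the labels name nothing shared, so the numbers were not taken to pair the libraries. With the replicate block 73 genes passed over all genes, none of them a member, and 0 with the block after GC correction. With the atrial marker covariate, added after seeing the data, 1 gene passed. Depth is unknown, so no limit on low genes such as Abcd2 can be given.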
